A study of Arabidopsis thaliana with 12 samples.

Results

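The transcripts of 6 Arabidopsis thaliana genes whose enzymes convert salicylic acid were followed in whole seedlings. They were taken by their locus identifiers from a count table of 33602 genes: S3H (AT4G10500, also DLO1) and S5H (AT5G24530, also DMR6), UGT74F1 (AT2G43840) and UGT74F2 (AT2G43820), BSMT1 (AT3G11480) and MES9 (AT4G37150). Of the 6, 5 passed the filter on low counts, as did 20736 genes in all; BSMT1 did not. The seedlings fell into 4 groups of 3 biological replicates, namely gp1-2 seedlings with volatiles, untreated gp1-2 seedlings, wild-type seedlings with volatiles and untreated wild-type seedlings. Wild type was the accession Col-0, and gp1-2 was 1 T-DNA insertion line, SAIL_209_D07, in the Col-0 background. All seedlings grew at 22 °C in days of 16 h light and 8 h dark, on medium with 1% sucrose, and were harvested as 7-day-old whole seedlings. For the last 2 days, from an age of 5 days, they stood on divided plates, in the treated groups beside GB03, a plant-growth-promoting Bacillus strain that emits volatiles. The series concerns the part of a stearoyl-ACP desaturase in the interaction with beneficial rhizobacteria. The labels name no locus for the insertion, so no transcript checks the genotype label, and gp1-2 means the libraries labelled so.

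Salicylic acid is a defence hormone of plants, and most of it is made from chorismate on a path that begins in the plastid. Plants lower its free level in several ways. Hydroxylation of the ring gives dihydroxybenzoic acids, glucosylation gives the glucoside stored in the vacuole or a glucose ester, and methylation gives methyl salicylate, which is volatile and which esterases can turn back into the free acid. Loss of S5H (DMR6) is known to raise salicylic acid and resistance to downy mildew in Arabidopsis.

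Total counts ran from 19583445 to 25214934 in gp1-2 with volatiles, from 17908408 to 18725561 in untreated gp1-2, from 15196962 to 15839067 in wild type with volatiles and from 11158051 to 14999793 in untreated wild type. Every gp1-2 library was thus deeper than every wild-type library. In each group the closest pair of libraries was replicates 1 and 2, at a chi-square per degree of freedom of 2.59 to 8.19, while pairs with replicate 3 were at 9.36 to 15.9. None of the 6 marker genes for shoot (RBCS1A, CAB1, RCA) or root (PYK10, COBL9, CASP1), chosen after the data were seen, was at 0 in any group. In bulk seedlings, fewer cells of a type and less RNA per cell cannot be told apart.

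The regions upstream of the hydroxylase and glucosyltransferase genes are shown first, to set S3H beside S5H and UGT74F2 beside UGT74F1, as the 300 bases before the annotated start, from the RefSeq annotation of TAIR10.1 and on the strand of the gene. Capitals mark TTGAC, the core of the W-box to which WRKY factors bind, and TGACG, the core to which TGA factors bind, on either strand.
S3H, chr4:6490717-6491016, plus strand: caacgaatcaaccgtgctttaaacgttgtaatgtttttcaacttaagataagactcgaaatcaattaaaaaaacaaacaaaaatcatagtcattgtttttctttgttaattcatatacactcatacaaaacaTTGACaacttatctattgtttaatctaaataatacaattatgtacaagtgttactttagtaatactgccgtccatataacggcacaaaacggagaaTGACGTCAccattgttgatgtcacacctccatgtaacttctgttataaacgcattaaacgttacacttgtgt
S5H, chr5:8378459-8378758, plus strand: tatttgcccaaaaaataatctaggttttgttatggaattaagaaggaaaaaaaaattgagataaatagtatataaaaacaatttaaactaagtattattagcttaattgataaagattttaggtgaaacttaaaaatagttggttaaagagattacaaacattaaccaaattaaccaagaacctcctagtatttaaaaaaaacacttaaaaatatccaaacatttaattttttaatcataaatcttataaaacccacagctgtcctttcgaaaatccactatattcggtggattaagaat
UGT74F2, chr2:18151778-18152077, plus strand: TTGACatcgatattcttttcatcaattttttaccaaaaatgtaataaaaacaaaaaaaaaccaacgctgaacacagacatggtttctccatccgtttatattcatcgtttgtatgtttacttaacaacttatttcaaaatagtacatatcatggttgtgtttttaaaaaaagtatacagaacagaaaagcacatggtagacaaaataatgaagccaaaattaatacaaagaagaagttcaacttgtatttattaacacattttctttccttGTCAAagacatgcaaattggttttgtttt
UGT74F1, chr2:18157229-18157528, plus strand: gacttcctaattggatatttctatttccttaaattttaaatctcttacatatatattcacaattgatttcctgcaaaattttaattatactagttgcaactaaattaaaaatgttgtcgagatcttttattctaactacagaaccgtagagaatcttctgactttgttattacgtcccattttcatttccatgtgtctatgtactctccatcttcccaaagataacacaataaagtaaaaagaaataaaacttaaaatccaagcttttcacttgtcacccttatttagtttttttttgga
The S3H window held 1 TTGAC beginning 168 bases before the start, and TGACG on both strands at 72 and 69 bases, where the hits overlap in TGACGTCA. The S5H window held no TTGAC and no TGACG. The UGT74F2 window held TTGAC at 300 bases and, on the other strand, at 29 bases, and the UGT74F1 window held neither motif. Of 27443 windows of this length before protein-coding genes, 50.4% held TTGAC and 17.9% at least 2 of it, 21.3% held TGACG and 3.99% at least 2 of it. The longer W-box forms TTGACC and TTGACT, present in 14% and 21.9% of windows, and GAAATT, a motif of the regulators CBP60g and SARD1 present in 37.2%, were in none of the 4 windows shown. In the windows of the other 2 genes, TTGAC occurred once each, TTGACT once before BSMT1 and GAAATT once before MES9, whose window overlaps the neighbouring gene AT4G37160 by 68 bases and is not shown. These are matches of letters, counted on both strands, and TTGAC is part of TTGACC and TTGACT and can overlap TGACG.

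S3H and S5H were far higher in gp1-2 than in wild type in both conditions. S3H, which puts a hydroxyl group on carbon 3 of salicylic acid, lies on chromosome 4 (TAIR10.1, 6491017 to 6492578, plus strand), and its transcript levels were 77.0, 66.3 and 72.6 CPM in gp1-2 with volatiles, against 1.2, 1.65 and 1.81 CPM in wild type with volatiles. Without bacteria it was at 29.2, 38.2 and 35.5 CPM in gp1-2 seedlings, against 0.744, 0.335 and 0.478 CPM in wild-type seedlings. CPM are counts per 1000000 counts of the tested genes, scaled by the TMM method. No gp1-2 library came near a wild-type library. Between genotypes S3H differed by 5.53 ± 0.17 on the log2 scale with volatiles and by 6.02 ± 0.21 without (SE; edgeR adjusted p 5.9e-13 and 3.8e-12), which is 46.1-fold and 64.7-fold. The wild-type values rest on few reads, with 18, 25 and 28 counts in wild type with volatiles and 11, 5 and 5 in untreated wild type.

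S5H puts the hydroxyl group on carbon 5, lies on chromosome 5 (TAIR10.1, 8378759 to 8383401, plus strand). Its levels were 174, 171 and 185 CPM in gp1-2 with volatiles, against 11.5, 11.8 and 10.9 CPM in wild type with volatiles. In untreated seedlings they were 173, 185 and 167 CPM in gp1-2, against 12.3, 11.3 and 8.99 CPM in wild type. The genotypes were wide apart and the libraries of each genotype close together, whatever the treatment. Between genotypes the log2 fold change was 3.95 ± 0.11 with volatiles and 4.00 ± 0.11 without (edgeR adjusted p 2.6e-13 and 3.5e-13), or 15.4-fold and 16.0-fold.

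**Figure D1:**
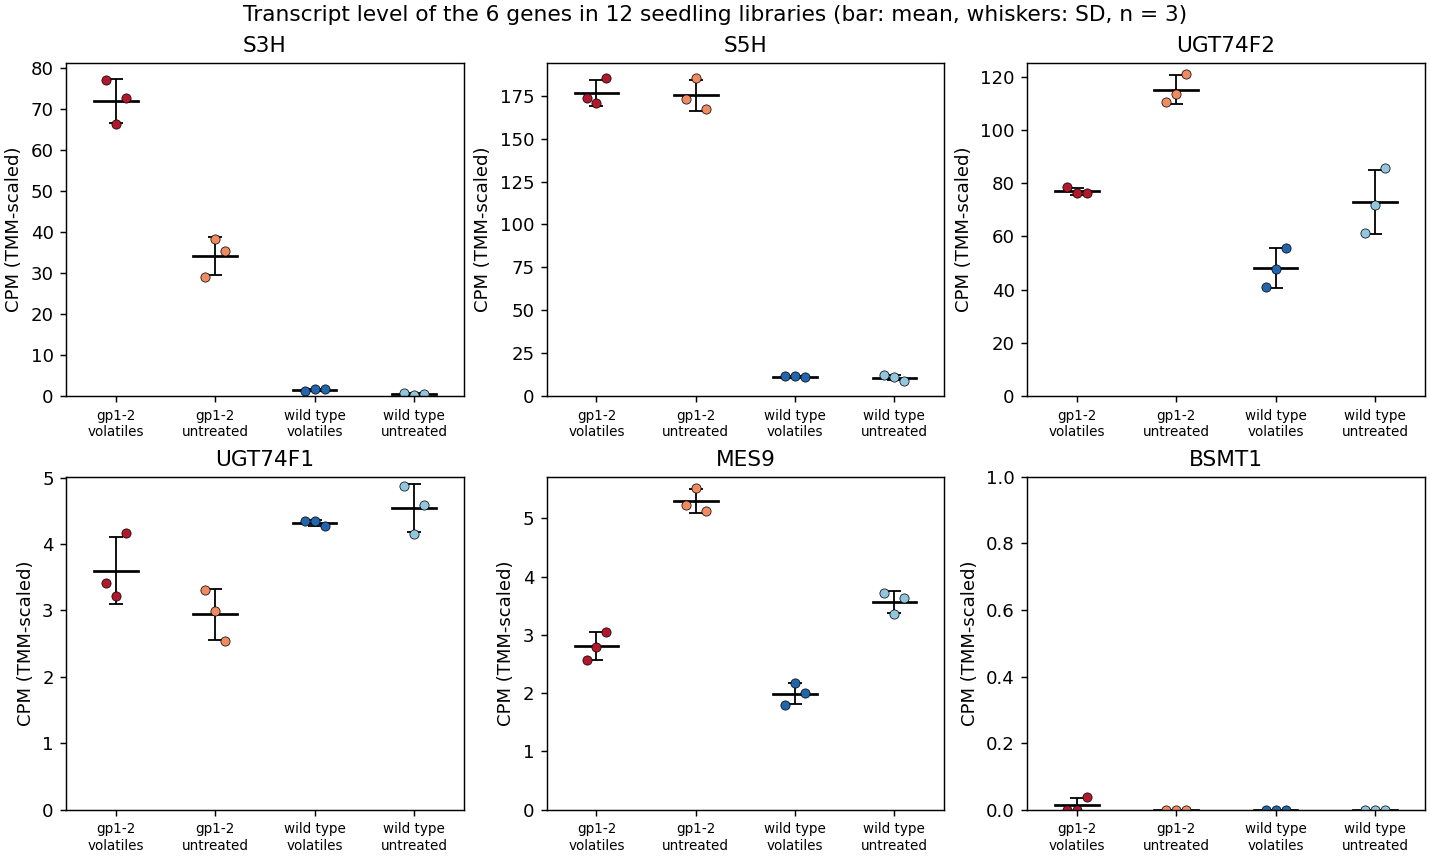
Transcript levels of the 6 genes, in TMM-scaled CPM on the vertical axes, for gp1-2 with volatiles, untreated gp1-2, wild type with volatiles and untreated wild type; points are libraries, bars means and whiskers SD (n = 3). S3H and S5H separated the genotypes, UGT74F2 and MES9 were lower with volatiles in each genotype, and BSMT1 stayed at or next to 0.

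The hydroxylases differed in their response to volatiles. S3H rose in gp1-2 to 72.0 ± 5.36 CPM with volatiles, against 34.3 ± 4.64 CPM untreated (SD, n = 3), which is 1.07 ± 0.12 on the log2 scale (edgeR adjusted p 6.3e-06). It also rose in wild type, to 1.55 ± 0.315 CPM with volatiles, against 0.519 ± 0.207 CPM untreated (1.56 ± 0.32 on the log2 scale, edgeR adjusted p 0.0021). Treated and untreated libraries did not overlap in either genotype, and both calls held in all 21 alternative fits. For S5H no change was detected. Its means were 176 ± 7.60 CPM in gp1-2 with volatiles and 175 ± 9.13 CPM in untreated gp1-2, with a 95% interval of the log2 fold change from -0.19 to 0.21. In wild type they were 11.4 ± 0.469 CPM with volatiles and 10.9 ± 1.70 CPM untreated, with an interval from -0.18 to 0.31 (edgeR adjusted p 0.95 in gp1-2 and 0.71 in wild type). Over the 4 groups the level of S3H therefore ordered as gp1-2 with volatiles, untreated gp1-2, wild type with volatiles and untreated wild type, without overlap between neighbours, whereas the order of S5H within a genotype was not resolved.

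The share of S3H in the summed counts of both hydroxylases does not depend on the scaling of the libraries, and, being uncorrected for length, is compared between libraries only. It was 30.7%, 28.0% and 28.2% in gp1-2 with volatiles and 14.4%, 17.1% and 17.5% in untreated gp1-2. In wild type it was 9.42%, 12.2% and 14.2% with volatiles and 5.70%, 2.89% and 5.05% untreated. Every treated library lay above every untreated library of its genotype. With volatiles, the gp1-2 share lay above the wild-type share in every library, and the same held without bacteria. For each of these 4 comparisons the two-sided exact permutation test gave p = 0.1, the smallest that 3 against 3 libraries allow, and an adjusted p of 0.11 over 8 tests of within-library ratios.

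The glucosyltransferases UGT74F1 and UGT74F2 lie 3.62 kb apart on chromosome 2 (TAIR10.1, 18157529 to 18159231 and 18152078 to 18153908, both plus strand). Without bacteria, UGT74F2 was called higher and UGT74F1 lower in gp1-2 than in wild type. Both enzymes glucosylate salicylic acid; UGT74F1 is known for the glucoside and UGT74F2 for the glucose ester. Their coding sequences, of 1350 bases each, were identical at 84.15% of positions. The longest run they share, 48 bases at coding positions 970 to 1017 of UGT74F1, is shown because reads inside it cannot be assigned to one gene.
Shared run: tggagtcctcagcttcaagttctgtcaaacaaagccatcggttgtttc
No stretch of 50 bases in either transcript occurred, in the same orientation, in a transcript of another protein-coding gene. The same was true of the other 4 genes. Pseudogenes, non-coding RNAs and matches to the opposite strand were not searched. On the opposite strand UGT74F1 overlaps the long non-coding RNA AT2G09505, which was not among the counted genes, by 356 bases, and AT2G43850 by 50 bases. UGT74F2 overlaps the pseudogene AT2G43830 by 62 bases, and BSMT1 overlaps the protein-coding gene AT3G11490 by 79 bases, both likewise on the opposite strand. How the authors' counting treated strand and reads in such overlaps is not given in the sources used here.

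UGT74F2 was higher in gp1-2 and lower with volatiles. It was at 78.5, 76.3 and 76.1 CPM in gp1-2 with volatiles, against 40.9, 47.8 and 55.8 CPM in wild type with volatiles. Untreated gp1-2 libraries were at 110.5, 114 and 121 CPM, against 61.4, 71.8 and 85.6 CPM in untreated wild type. Every gp1-2 library exceeded every wild-type library of its condition, and the log2 fold change was 0.68 ± 0.12 with volatiles and 0.66 ± 0.12 without (edgeR adjusted p 0.00028 and 0.00046). With volatiles UGT74F2 fell by 0.58 on the log2 scale in gp1-2 and fell by 0.60 in wild type (SE 0.12 each, edgeR adjusted p 0.0017 and 0.0020), again without overlap of libraries. The effects were opposite and of like size, so that gp1-2 with volatiles (77.0 ± 1.35 CPM) and untreated wild type (72.9 ± 12.1 CPM) overlapped.

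UGT74F1 was a low transcript and was lower in untreated gp1-2. Its levels there were 3.31, 2.99 and 2.54 CPM, against 4.87, 4.16 and 4.59 CPM in untreated wild type. The groups did not overlap, and the difference was -0.62 ± 0.17 on the log2 scale (edgeR adjusted p 0.0089). The call was lost when replicate 3 was left out of all groups (-0.52, edgeR adjusted p 0.062), and it held in the 20 other fits. With volatiles it was at 3.41, 3.21 and 4.17 CPM in gp1-2, against 4.34, 4.34 and 4.27 CPM in wild type, and the difference was not called (-0.26 ± 0.16, edgeR adjusted p 0.21) although the libraries did not overlap. No change with volatiles was detected within gp1-2, with an interval from -0.05 to 0.65 on the log2 scale, or within wild type, with an interval from -0.42 to 0.28 (edgeR adjusted p 0.19 and 0.79).

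Within libraries, UGT74F2 had 23.0, 23.7 and 18.3 counts for each UGT74F1 count in gp1-2 with volatiles, and 33.4, 38.0 and 47.7 in untreated gp1-2. In wild type the ratio was 9.43, 11 and 13.1 with volatiles and 12.6, 17.3 and 18.7 untreated. The ratio was higher in gp1-2 than in wild type in every library of either condition, and lower with volatiles than without in every gp1-2 library (two-sided exact permutation p = 0.1 for each of the 3 comparisons, the smallest possible, and 0.11 adjusted over 8 tests). These ratios too are uncorrected for length. In wild type the treated and untreated ratios overlapped (exact permutation p = 0.2).

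**Figure D2:**
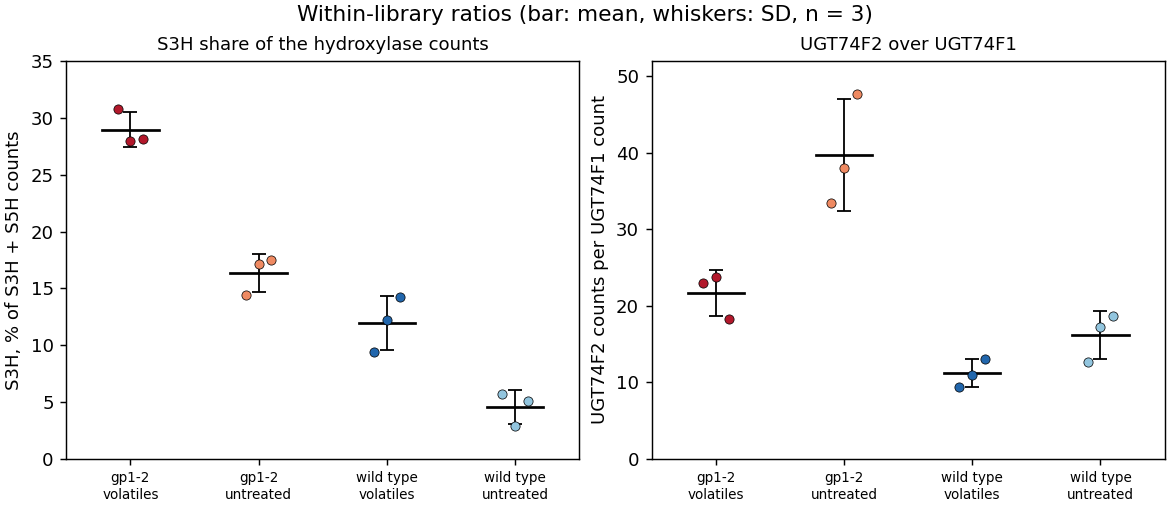
Ratios of counts within each library, in gp1-2 with volatiles, untreated gp1-2, wild type with volatiles and untreated wild type; points are libraries, bars means and whiskers SD (n = 3). Left, the share of S3H in the counts of S3H and S5H in percent, from 2.89% in an untreated wild-type library to 30.7% in a treated gp1-2 library; right, UGT74F2 counts per UGT74F1 count, highest in untreated gp1-2 at 33.4 to 47.7.

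BSMT1, the methyltransferase that makes methyl salicylate and methyl benzoate and is known for its expression in flowers, had a single count in all 12 libraries (chromosome 3, TAIR10.1, 3614421 to 3617342, plus strand). That count fell in replicate 3 of gp1-2 with volatiles, at 0.0386 CPM. In the other groups 0 counts over 3 libraries put an upper 95% limit of about 3 on the expected count per group. This is 0.0544 CPM in untreated gp1-2, 0.0657 CPM in wild type with volatiles and 0.0747 CPM in untreated wild type. These limits cover counting error only, since PCR copies of one molecule cannot be told from separate molecules here. A difference in BSMT1 was not detectable at this depth, neither with volatiles nor between the genotypes.

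MES9, an esterase that turns methyl salicylate back into salicylic acid, fell with volatiles in both genotypes (chromosome 4, TAIR10.1, 17492871 to 17494279, minus strand). It was at 2.57, 2.80 and 3.05 CPM in gp1-2 with volatiles, against 5.24, 5.53 and 5.13 CPM in untreated gp1-2. The treated wild-type libraries had 1.80, 2.17 and 2.00 CPM, against 3.72, 3.35 and 3.63 CPM in the untreated ones. The treated libraries lay below all untreated ones of their genotype, and MES9 fell by 0.91 in gp1-2 and fell by 0.84 in wild type on the log2 scale (SE 0.15 and 0.17, edgeR adjusted p 0.00024 and 0.0021). MES9 was higher in gp1-2 than in wild type without bacteria (0.57 ± 0.15 on the log2 scale, edgeR adjusted p 0.0075). In treated seedlings it was higher as well (0.50 ± 0.17, edgeR adjusted p 0.025), but this call was lost in 8 of 21 alternative fits: with DESeq2 (0.53, adjusted p 0.052), with upper-quartile normalization (0.42, adjusted p 0.058), with libraries thinned to equal depth (0.36, adjusted p 0.19), without replicate 3 of all groups (0.43, adjusted p 0.15), and without treated gp1-2 replicate 2 (0.50) or 3 (0.43) or treated wild-type replicate 1 (0.43) or 3 (0.50).

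Counted together, 4 of the 5 genes tested were called higher in gp1-2 with volatiles and none lower, where 45.9% of all tested genes were called, 22.6% higher and 23.3% lower. Without bacteria all 5 were called, 4 higher and 1 lower in gp1-2, where 37.2% of all tested genes were called, 20.0% higher and 17.2% lower. The median log2 fold change of the 5 genes was 0.68 with volatiles and 0.66 without, and that of all tested genes was -0.05 and -0.02. Volatiles changed 3 of the 5 in gp1-2, where 32.3% of all tested genes were called (14.7% higher and 17.6% lower), and 3 of the 5 in wild type, where 30.1% were (14.8% higher and 15.3% lower). In either genotype these were S3H, which rose, and UGT74F2 and MES9, which fell. The median log2 fold change with volatiles was 0.01 in gp1-2 and -0.07 in wild type, against 0.00 for all tested genes in both. The libraries of the compared groups did not overlap for 54.2% of tested genes between genotypes with volatiles, 47.6% between genotypes without bacteria, 47.3% with volatiles in gp1-2 and 41.6% with volatiles in wild type.

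The summed level of the 3 shoot markers moved with genotype. It was 11730 to 13300 CPM in gp1-2 with volatiles, against 26700 to 29850 CPM in wild type with volatiles. Untreated seedlings had 16820 to 17570 CPM in gp1-2, against 25210 to 32240 CPM in wild type. All 3 shoot markers were called lower in gp1-2 in both conditions and lower with volatiles in gp1-2. RCA (-0.60) was also called lower with volatiles in wild type. Between genotypes, 23.3% of all tested genes were called lower in gp1-2 with volatiles and 17.2% without bacteria. Between treated and untreated seedlings, 17.6% were called lower with volatiles in gp1-2 and 15.3% in wild type. Of the 3 root markers, COBL9 alone was called, lower in gp1-2 than in wild type with volatiles (-0.37). The summed root markers were 2467 to 2746 CPM in gp1-2 with volatiles, 2536 to 2671 CPM in untreated gp1-2, 2982 to 3051 CPM in wild type with volatiles and 2698 to 2884 CPM in untreated wild type. The part of the organ markers in the differences between groups was not tested.

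Whether the response to volatiles differed between the genotypes was tested directly by the interaction, the effect in gp1-2 minus that in wild type. It was called for 0 of the 5 genes with edgeR, DESeq2 and limma-voom alike, and 0 had an unadjusted p under 0.05; 2.80% of all tested genes were called, 1.48% higher and 1.32% lower. The interval of the difference ran from -1.24 to 0.26 on the log2 scale for S3H, from -0.37 to 0.26 for S5H and from -0.35 to 0.38 for UGT74F2. It ran from -0.13 to 0.865 for UGT74F1 and from -0.56 to 0.42 for MES9. The interval was widest for S3H, whose wild-type counts were the lowest of the 5 genes.

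**Figure D3:**
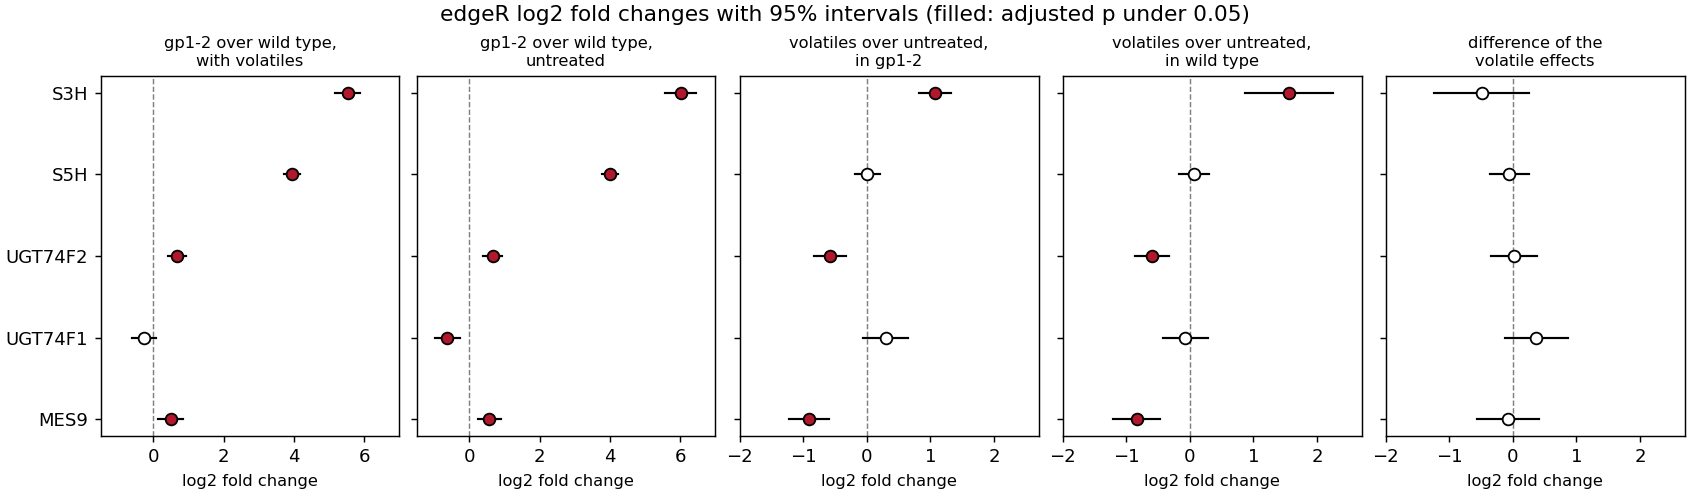
Log2 fold changes (horizontal axes) of the 5 tested genes for gp1-2 over wild type with volatiles and untreated, for volatiles over untreated in gp1-2 and in wild type, and for the difference of the volatile effects; lines are 95% intervals and filled points have an edgeR adjusted p under 0.05. S3H at 5.53 and 6.02 and S5H at 3.95 and 4.00 exceeded the other genotype differences, and all 5 intervals of the last panel include 0.

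The levels of different genes are set side by side as CPM per kilobase of annotated exons. In gp1-2 with volatiles S5H was at 119 ± 5.14, S3H at 53.0 ± 3.95 and UGT74F2 at 44.1 ± 0.777 CPM per kilobase, while MES9 (2.54 ± 0.215) and UGT74F1 (2.29 ± 0.321) did not differ beyond their spread. In untreated gp1-2 the values were 118.5 ± 6.18 for S5H, 66.0 ± 3.14 for UGT74F2, 25.2 ± 3.42 for S3H, 4.79 ± 0.185 for MES9 and 1.87 ± 0.245 for UGT74F1. In wild type UGT74F2 stood first, at 27.6 ± 4.27 CPM per kilobase with volatiles and 41.8 ± 6.94 untreated. S5H followed at 7.74 ± 0.317 with volatiles and 7.34 ± 1.15 untreated. S3H was lowest of the 5 in both wild-type groups, at 1.14 ± 0.232 and 0.382 ± 0.153 CPM per kilobase. The most abundant transcript of the set was thus S5H in gp1-2 and UGT74F2 in wild type.

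A list of 11 further genes of salicylate conversion was read as context, of which 9 passed the filter and DLO2 and MES4 did not. With volatiles 5 were called higher and 1 lower in gp1-2, and without bacteria 5 higher and 0 lower, with median log2 fold changes of 0.46 and 0.56. Of all tested genes 45.9% were called with volatiles (22.6% higher) and 37.2% without bacteria (20.0% higher), with medians of -0.05 and -0.02. UGT76B1, which glucosylates salicylic acid and N-hydroxypipecolic acid, was at 140.2 ± 15.3 CPM in gp1-2 with volatiles and 84.3 ± 8.00 CPM in wild type with volatiles, and at 89.3 ± 8.90 CPM in untreated gp1-2 and 45.6 ± 1.15 CPM in untreated wild type. It was called in all 4 comparisons, higher in gp1-2 (0.73 and 0.97) and higher with volatiles (0.65 in gp1-2 and 0.89 in wild type; edgeR adjusted p 2.3e-05 to 0.00021 where volatiles are concerned). It thus rose with volatiles, where UGT74F2 fell; the 2 genes were not tested against each other. SOT12, a sulphotransferase that accepts salicylic acid, was higher in gp1-2 (0.42 with volatiles and 1.06 without). GH3.5, which joins amino acids to salicylic acid and auxin, was higher too (0.46 and 0.78), as was UGT89A2, a glycosyltransferase of dihydroxybenzoic acids (0.995 and 0.87). UGT71C3, a glucosyltransferase of methyl salicylate, was called higher without bacteria (0.53, edgeR adjusted p 0.0033) and was at 0.29 with volatiles (edgeR adjusted p 0.057).

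Of the methyl salicylate esterases other than MES9, MES2 was at 25.7 ± 4.40 CPM in gp1-2 with volatiles, against 44.5 ± 8.30 CPM in wild type with volatiles, and was called lower (-0.79, edgeR adjusted p 0.00011). It also fell with volatiles in gp1-2 (-0.97, edgeR adjusted p 4.3e-05). MES1 was called higher in gp1-2 with volatiles (0.57, edgeR adjusted p 0.036), and this call was lost in 7 alternative fits, with upper-quartile scaling (0.49), without replicate 3 of all groups (0.56, adjusted p 0.14), without any of the 3 treated wild-type libraries (0.54 to 0.62) and without treated gp1-2 replicate 2 (0.40) or 3 (0.59). Volatiles changed 4 of the 9 genes in gp1-2, 2 higher and 2 lower, and 2 in wild type, both higher, where 32.3% and 30.1% of all tested genes were called. In gp1-2 they were UGT76B1 and UGT76D1 (0.65 each, edgeR adjusted p 0.00021 and 0.046), GH3.5 (-0.39) and MES2. The call of UGT76D1 was lost in 9 alternative fits (0.45 to 0.71, adjusted p up to 0.20), 7 of them without 1 library. That of GH3.5 was lost without untreated gp1-2 replicate 1 or 2 or treated gp1-2 replicate 2 or 3. In wild type they were UGT76B1 and SOT12 (0.40), and SOT12 was no longer called once replicate 2 of untreated wild type (0.30) or replicate 3 of treated wild type (0.26) was left out. Its call was also lost when the compared groups were fitted alone (0.38, edgeR adjusted p 0.054). Between genotypes, 45.9% of all tested genes were called with volatiles (22.6% higher and 23.3% lower in gp1-2). Without bacteria 37.2% were (20.0% higher and 17.2% lower). Of 7 genes of salicylate synthesis and its regulation, 5 were called higher and 1 lower in gp1-2 in each condition. Among them ICS1, the isochorismate synthase, was at 171.7 and 168.4 CPM in gp1-2 with volatiles and untreated gp1-2, against 9.65 and 8.57 CPM in wild type with volatiles and untreated wild type.

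**Figure D4:**
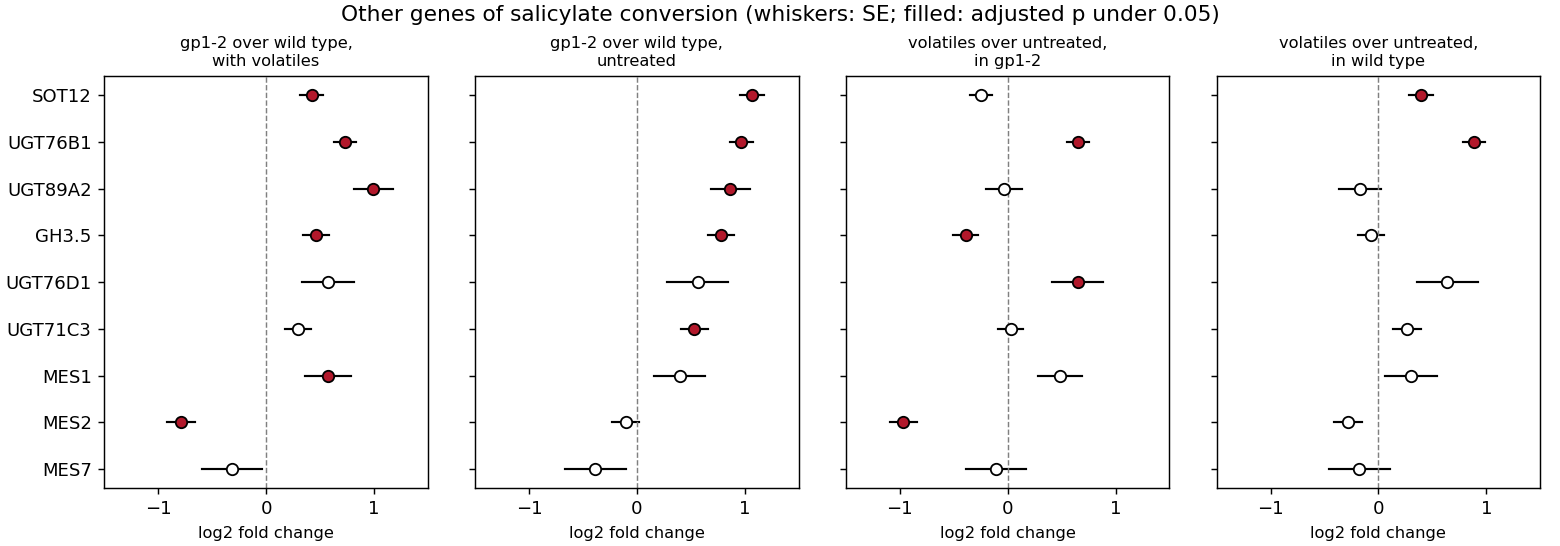
Log2 fold changes (horizontal axes) of the 9 other tested genes of salicylate conversion in the same 4 comparisons; whiskers are SE and filled points have an edgeR adjusted p under 0.05. UGT76B1 is filled in every panel, and MES2 is lower in gp1-2 with volatiles (-0.79) and with volatiles in gp1-2 (-0.97).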

How the data were processed

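RNA of whole seedlings was sequenced in 12 libraries, 3 in each of 4 groups; the labels call the replicates biological without naming separate cultures, so p-values measure the spread between these samples. The authors deposited raw read counts per gene in a single table. Per the submitters' processing notes, the tools were Trimmomatic 0.36, HISAT2 2.1.0 and HTSeq 0.9.1 with the build TAIR10; settings, read length, strand and annotation release are not given in the sources used here. Counts were filtered with filterByExpr (20736 of 33602 genes kept), scaled by TMM and tested with edgeR's quasi-likelihood test over all libraries, with 1 coefficient per group (R 4.3.3 with edgeR 4.0.16). Benjamini-Hochberg adjustment ran over all tested genes, and calls needed an adjusted p under 0.05. Standard errors are the log2 fold change over the root of F. The alternatives were RLE and upper-quartile scaling, no filter, DESeq2 1.42.0, limma-voom (limma 3.58.1), a replicate block, fits of the compared groups alone, thinning to the smallest library, and leaving out each library or replicate 3 of all groups; for lists and listed genes they were added after the data had been seen. Sequences, coordinates and coding identity, which replaced a planned protein comparison, come from RefSeq TAIR10.1. The members and lists were chosen with earlier results of these data known. By rule, the text names the members, the other conversion genes called between genotypes, the largest rise and fall of each other list per genotype comparison, and the 3 closest patterns of each member; other genes were named after their values were seen. Simulated counts with known changes served as a check of the fit.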

Additional observations from a re-analysis of the deposited data

Results flagged for a closer look

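The test of the difference between the volatile effects in gp1-2 and in wild type called 0 of the 5 tested salicylate genes with edgeR, DESeq2 and limma-voom, and 0 had an unadjusted p under 0.05. Of the listed and marker genes named beside them, SOT12, UGT74E1, SSI2, SARD1 and RCA were called in that test, against 2.80% of all tested genes. SARD1 and RCA were added after the values were seen, and the closest-pattern genes were not looked up. By list, the test called 1 of 9 other conversion genes, 1 of 5 other UGT74 genes and 0 of 13 other SABATH methyltransferases. It called 1 of 15 other methylesterases, not among those named, and 1 of 7 synthesis genes. Of the 11 tested genes in the run of loci that holds SSI2, it called 1, SSI2 itself. SOT12 was at 42.7 ± 1.45 CPM in gp1-2 with volatiles and 50.7 ± 1.93 CPM in untreated gp1-2, and at 31.9 ± 4.91 CPM in wild type with volatiles and 24.3 ± 2.62 CPM in untreated wild type (SD, n = 3). The difference of its volatile effects was -0.64 ± 0.15 on the log2 scale (edgeR adjusted p 0.035). UGT74E1, a relative of the UGT74F pair, was at 18.3 ± 1.77 and 19.5 ± 2.24 CPM in gp1-2 with volatiles and untreated gp1-2, and at 1.69 ± 1.03 and 6.43 ± 1.99 CPM in wild type with volatiles and untreated wild type, a difference of 1.83 ± 0.38 (edgeR adjusted p 0.018). SSI2 (AT2G43710, also FAB2), which lies 29.2 kb from UGT74F2, had a difference of -0.60 ± 0.15 (edgeR adjusted p 0.048). The call of SOT12 was lost in 8 alternative fits (-0.67 to -0.51, adjusted p up to 0.096) and that of SSI2 in 13 (-0.66 to -0.45, adjusted p up to 0.11), most of them fits without 1 library. SARD1, a regulator of salicylate synthesis, had a difference of 1.10 ± 0.26 (edgeR adjusted p 0.036), a call lost in 8 alternative fits (0.87 to 1.09, adjusted p up to 0.11). RCA, one of the shoot markers, had a difference of -0.63 ± 0.13 (edgeR adjusted p 0.015) and was no longer called once replicate 2 of untreated gp1-2 was left out (-0.56, adjusted p 0.052).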

How the results depend on the processing

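Of 520 refits of the 5 salicylate genes (20 or 21 alternatives in each of 5 comparisons), 499 kept direction and side of the threshold, 9 lost a call and 12 changed sign, the last all in values that were not called. The lost calls are those of MES9 between genotypes with volatiles (0.36 to 0.53) and of UGT74F1 between genotypes without bacteria (-0.52). Sign changes occurred for S5H with volatiles in gp1-2 (-0.025 to 0.052 without 1 library, -0.058 without replicate 3 of all groups) and in wild type (-0.043 to 0.164, and -0.011), and, without 1 library, for its interaction (-0.154 to 0.053) and for the interaction of UGT74F2 (-0.112 to 0.135). After thinning they occurred for the interaction of UGT74F2 (-0.009) and for UGT74F1 with volatiles in wild type (0.067). The count of genes called over all tested genes moved by over 1.5 times for the interaction alone, where it was 580, 941 with DESeq2 and 1038 with a replicate block, 831 without replicate 3 of all groups and 331 to 615 without 1 library. The lowest of these, 331 to 354, came without untreated gp1-2 replicate 1 or 2, treated gp1-2 replicate 1 or 2, or untreated wild-type replicate 2. Of the other salicylate conversion genes, 2 were called with volatiles in wild type, 1 when the compared groups were fitted alone or without untreated wild-type replicate 2, and 4 without replicate 3 of all groups. In gp1-2, 4 were called, and 2 without untreated gp1-2 replicate 2 or treated gp1-2 replicate 2 or 3. The cause of these changes was not tested. The replicate block changed no call of the 5 genes. Same-numbered libraries of different groups correlated in their deviations from the group means at -0.032 to 0.253, and 11 of 12 libraries correlated best with their own number, a hint from the data and not the design, so the numbers were not taken to pair the libraries. Upper-quartile and RLE scaling shifted the median of all genes by at most 0.090 on the log2 scale. Depth limits S3H (5 to 28 counts), FAMT (0 to 7) and PBS3 (means of 0.74 CPM with volatiles and 0.44 CPM untreated) in wild type, and BSMT1 (1 count in all).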

Other observations

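The wider enzyme families of the salicylate genes are given beside all tested genes, of which 22.6% were called higher and 23.3% lower in gp1-2 with volatiles, and 20.0% higher and 17.2% lower without bacteria. Of 23 other SABATH methyltransferases, the family of BSMT1, 13 passed the filter; with volatiles 4 were called higher and 2 lower in gp1-2, and without bacteria 4 higher and 4 lower. FAMT (AT3G44860), a methyltransferase of farnesoic acid, was at 58.4 ± 4.15 CPM in gp1-2 with volatiles and 29.3 ± 3.75 CPM in untreated gp1-2, against 0.154 ± 0.266 CPM in wild type with volatiles and 0.358 ± 0.270 CPM in untreated wild type (SD, n = 3). In wild type with volatiles all 7 FAMT counts were in replicate 2, and untreated wild-type libraries had 3, 3 and 7 counts, so the size of the fold is not given. The difference was called in both conditions (edgeR adjusted p 2.1e-11 and 4.9e-10). The value is uncertain as far as reads are shared with the neighbouring copy AT3G44870, which had 1 count in all. Stretches shared between FAMT and AT3G44870 were not searched for. The largest falls in the family were those of AT3G21950 with volatiles (-0.97) and IAMT1, the methyltransferase of auxin, without bacteria (-1.29). Of 19 other methylesterases 15 passed the filter; 4 were called higher in gp1-2 in each condition, and 7 lower with volatiles and 2 lower without. MES1, MES2, MES4 and MES7 are also in the list of other conversion genes, so the calls of MES1 and MES2 enter both counts. Without replicate 3 of all groups, 9 in place of 11 were called with volatiles. MES5 rose most (1.80 and 1.66), and MES8 with volatiles (-1.27) and MES12 without bacteria (-0.83) fell most. All 5 other UGT74 genes passed the filter. With volatiles 2 were called higher and 3 lower in gp1-2, UGT74E1 at 3.43 and UGT74D1 at -0.56 being the extremes (4 in place of 5 without replicate 3 of all groups, the call of UGT74C1 being lost at -0.26), and without bacteria 2 higher, led by UGT74E1 (1.60), and UGT74C1 lower (-0.32, lost without untreated wild-type replicate 1).

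UGT74F1 and UGT74F2 lie close to SSI2, a stearoyl-ACP desaturase gene. In the run of 17 listed loci from AT2G43700 to AT2G43860, the UGT74F pair left out, 11 passed the filter; 3 were called higher and 1 lower in gp1-2 in each condition, with medians of 0.10 with volatiles and 0.09 without, where 45.9% and 37.2% of all tested genes were called. SSI2 was the largest rise (1.87 with volatiles and 2.47 without) and OASB, a cysteine synthase, the largest fall (-0.51 and -0.28, the second call lost without untreated gp1-2 replicate 1 or 2). AT2G43850, whose end overlaps UGT74F1, was called higher in gp1-2 (0.76 and 0.70), the direction opposite to that of UGT74F1. Of the salicylate synthesis genes, PBS3, which conjugates isochorismate to glutamate, had the largest rise in gp1-2 (7.73 with volatiles and 8.03 without), and ICS2 the largest fall (-0.82 and -0.89). PBS3 was at 0.74 ± 0.24 CPM in wild type with volatiles and 0.44 ± 0.12 CPM in untreated wild type (SD). The size of its rise therefore rests on few wild-type reads.

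The patterns closest to each gene were sought among 19575 genes, by the root mean square difference of centred log2 CPM over 12 libraries, as a description. For S3H they were CRK24, XBAT34 and WAK1, at 0.376, 0.412 and 0.431 log2 units, and for S5H they were RK3, AT3G63380 and GSTF2, at 0.180, 0.181 and 0.194. UGT74F2 was closest to AT3G18930, DER2.1 and MT2A, at 0.100, 0.113 and 0.142. MES9 was closest to AT5G43440, COPT1 and AT4G19860, at 0.107, 0.119 and 0.127. UGT74F1 was closest to AT5G55520, AT4G03100 and AT4G02900, at 0.104, 0.109 and 0.115.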
